A study of Mus musculus with 20 samples.

Results

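The genes of the stria vascularis and its pigment cells followed here are Dct, Tyrp1, Pmel, Slc45a2, Gpnmb, Met, Lrp2, Dnase1, Enpep and Hpse, 10 of the 24411 genes in the tables, measured library by library in the mouse cochlea. They were selected on measured values: several of them stood out in 1 pool of heterozygous mice at P22 (postnatal day 22), so their P22 values and their P22 to P7 differences are given as descriptions, with no test. The RNA came from sensory epithelium with spiral ganglion dissected at P7 or P22, from C57BL/6N mice of both sexes. Control mice were Bai1tm2b/+ (heterozygous) and their littermates were Bai1tm2b/tm2b (homozygous). The tm2b allele removes exons of the long isoform of Adgrb1, which encodes the adhesion receptor BAI1, and leaves a lacZ cassette in place, so the controls also carry 1 disrupted copy. Each library was a pool of 4 mice. There were 3 pools per genotype at P22 (pools 1 to 3) and 3 per genotype at P7 (pools 5 to 7), both deposited as estimated counts, and 4 further P7 pools per genotype (pools 1 to 4) deposited as TPM (transcript abundance scaled for length and depth) in whole numbers.

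The stria vascularis is the secretory epithelium of the cochlear lateral wall, which pumps potassium into the endolymph and generates the endocochlear potential. Its intermediate cells are derived from melanocytes and share melanosomal genes with the pigment cells of skin, whereas its marginal cells face the endolymph and carry the apical potassium channel and an array of endocytic and surface enzymes. Neither cell type belongs to the organ of Corti or the spiral ganglion.

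The count libraries held 31108551 to 58807173 estimated counts. Values below are CPM (counts scaled for depth over all 12 count libraries by trimmed means) or deposited TPM, and these 2 scales were not compared with each other. Adgrb1 itself ran from 152 to 167 CPM in the P22 heterozygous pools and from 100 to 105 CPM in the P22 homozygous pools, which did not overlap. At P7 it ran from 32.1 to 56.5 CPM and from 21.6 to 31.2 CPM, also without overlap but not called (edgeR adjusted p = 0.894). In the TPM libraries it ran from 7 to 12 TPM in heterozygous pools and from 9 to 12 TPM in homozygous pools, so it did not separate the genotype labels there. Summed hair cell markers ran from 178 to 292 CPM over the P22 libraries and summed neuronal markers from 5508 to 8285 CPM. Otos and Coch, listed here for the fibrocytes of the spiral ligament, ran from 1919 to 2920 CPM and from 4884 to 6216 CPM over the P22 libraries. Which cells this RNA came from was not tested. The libraries standing farthest apart in these genes were heterozygous pool 2 at P22 and heterozygous pool 3 at P7, both high, and homozygous pool 6 at P7, low for some of them. P7 heterozygous pool 4 was also above the remaining TPM libraries, with 161 TPM summed over the members against 50 to 96 TPM. A change in a bulk library cannot tell fewer cells of a type from less RNA per cell.

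The upstream sequences of 3 tyrosinase family genes are shown because these genes share a biosynthetic pathway but not a pattern of level across the libraries. Dct encodes dopachrome tautomerase and Tyr encodes tyrosinase, the enzyme that starts melanin synthesis. Tyrp1 encodes tyrosinase-related protein 1. Capitals mark CATGTG, an E-box that the melanocyte factor MITF can bind, or its reverse complement CACATG. The windows are the 250 bases before the RefSeq start site (GRCm38.p6), written 5′ to 3′ on the gene's strand, at chr14:118052247-118052496 (minus strand) for Dct, chr7:87493513-87493762 (minus strand) for Tyr and chr4:80833963-80834212 (plus strand) for Tyrp1.
Dct: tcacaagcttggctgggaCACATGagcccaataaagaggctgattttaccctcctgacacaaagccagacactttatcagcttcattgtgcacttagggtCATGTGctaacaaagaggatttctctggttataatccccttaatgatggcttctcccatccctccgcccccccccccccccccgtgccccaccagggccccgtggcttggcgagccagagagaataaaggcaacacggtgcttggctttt
Tyr: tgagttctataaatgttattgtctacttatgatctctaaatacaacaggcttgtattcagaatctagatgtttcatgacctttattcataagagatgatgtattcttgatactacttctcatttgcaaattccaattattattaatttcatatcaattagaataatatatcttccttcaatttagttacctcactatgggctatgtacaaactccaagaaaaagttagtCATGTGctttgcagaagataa
Tyrp1: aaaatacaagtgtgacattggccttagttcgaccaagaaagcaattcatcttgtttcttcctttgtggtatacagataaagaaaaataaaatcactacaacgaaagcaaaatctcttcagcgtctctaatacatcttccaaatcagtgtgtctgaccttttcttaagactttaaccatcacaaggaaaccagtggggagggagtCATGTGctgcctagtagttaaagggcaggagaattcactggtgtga
The Dct window held the motif 2 times, with its first base 232 and 150 bases before the start. The Tyr and Tyrp1 windows each held it once, 21 and 46 bases before the start. Each of these matches was also the longer TCATGTG, which contains CATGTG. Over 32851 promoter windows of the same length, read on both strands, 12.3% held CATGTG and 3.25% held TCATGTG. Of the 8 members with a promoter in the RefSeq table, 4 held CATGTG (Dct, Tyrp1, Lrp2 and, at the second of its listed starts, Dnase1). This is a match of letters only, and the levels of Tyrp1 below did not follow those of Dct.

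At P22 the pigment cell genes divided. Dct (chr14:118012790-118052244, minus strand) measured 1.197, 267 and 1.995 CPM in heterozygous pools 1, 2 and 3, against 0.922, 1.75 and 1.31 CPM in homozygous pools 1, 2 and 3. Slc45a2 (chr15:11000721-11029233, plus strand), a transporter of the melanosome membrane, measured 0.153, 15.9 and 0.323 CPM in the heterozygous pools and 0.0542, 0.239 and 0.279 CPM in the homozygous pools, from 506 counts in pool 2 and from 2 to 11 counts elsewhere. Gpnmb (chr6:49036546-49070929, plus strand), a melanosomal glycoprotein also made by macrophages, measured 2.06, 47.5 and 1.58 CPM against 5.34, 3.05 and 1.98 CPM. All 3 genes were thus high in heterozygous pool 2 alone, at 203, 66.6 and 23.1 times the median of the other 5 libraries. The other 2 heterozygous pools lay inside or next to the homozygous range.

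Other pigment cell genes did not take part in this rise or did so weakly. Tyrp1 (chr4:80834123-80851719, plus strand) measured 0.767, 0.754 and 0.645 CPM in the heterozygous pools and 0.732, 0.743 and 0.921 CPM in the homozygous pools, from 22 to 33 counts a library. Pmel (chr10:128704195-128720238, plus strand), which encodes the protein of the melanosome's fibrils, measured 4.82, 4.81 and 7.54 CPM against 6.02, 5.63 and 4.16 CPM. Pool 2 therefore sat at 1.02 times the median of the others for Tyrp1 and at 0.855 times for Pmel. Met (chr6:17463800-17573980, plus strand), the receptor for hepatocyte growth factor, measured 14.2, 34.7 and 14.1 CPM against 14.0, 16.3 and 17.8 CPM, a ratio of 2.44 to the median. Of the exon bases of Pmel, 6.07% overlap genes on the opposite strand, Cdk2 among them, and the Cdk2 level in pool 2 was 1.01 times the median of the others.

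The 4 members on the marginal cell list were high in the same pool, as their choice implies. Of all 16 genes on that list, 9 met the rule for a high gene given below. Dnase1 (chr16:4036942-4040024, plus strand), a secreted DNA endonuclease, measured 7.89, 493 and 8.92 CPM in the heterozygous pools and 8.68, 12.3 and 12.9 CPM in the homozygous pools. Lrp2 (chr2:69424340-69586065, minus strand), which encodes the endocytic receptor megalin, measured 41.2, 316 and 25.2 CPM against 18.6, 22.9 and 30.5 CPM. Enpep (chr3:129269175-129332720, minus strand), the angiotensin-cleaving aminopeptidase A, measured 10.99, 64.8 and 7.75 CPM against 11.6, 11.9 and 9.91 CPM. The ratios of pool 2 to the median of the other libraries were 55.3 for Dnase1, 12.5 for Lrp2 and 5.90 for Enpep. Hpse (chr5:100679484-100719716, minus strand), the heparan sulphate-cleaving enzyme heparanase, measured 1.84, 42.5 and 1.58 CPM against 1.38, 2.02 and 1.37 CPM, a ratio of 26.8. Of the exon bases of Dnase1, 18.1% overlap genes on the opposite strand, mainly Trap1, whose level in pool 2 was 1.06 times the median of the others.

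**Figure D1:**
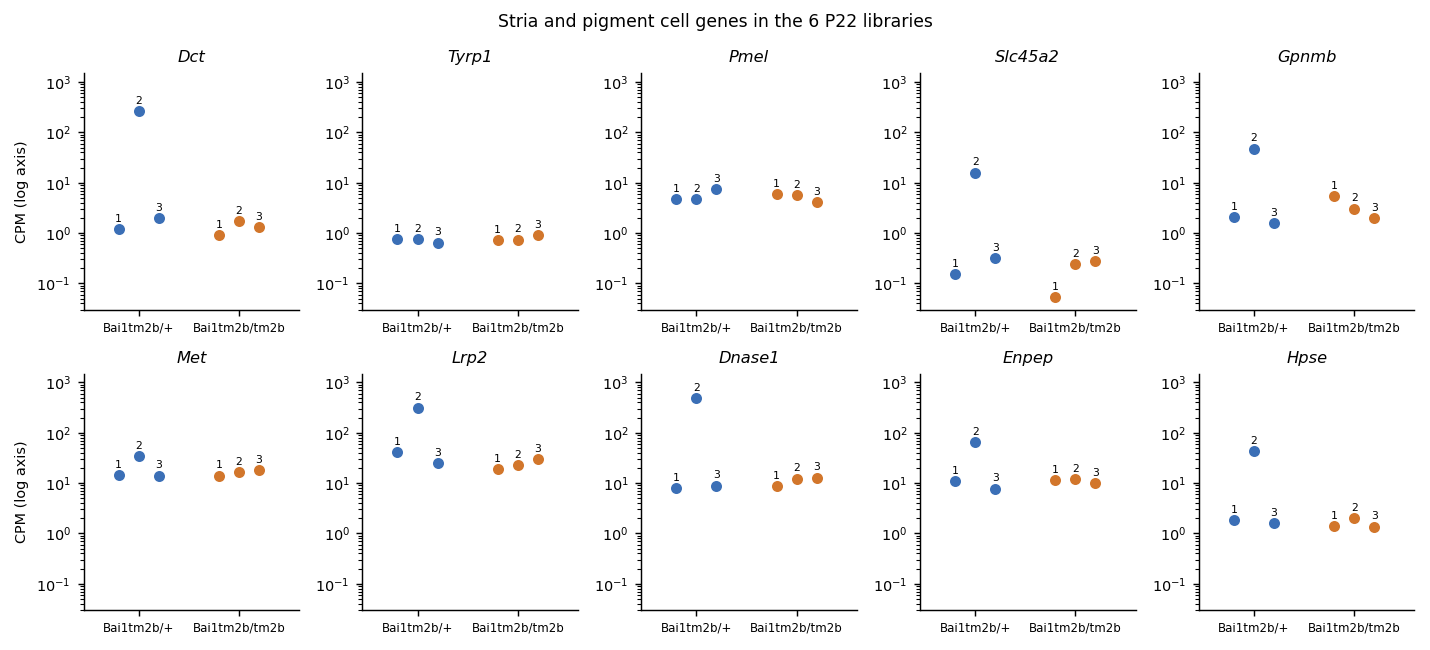
Level of each gene in the 6 P22 libraries, in CPM on 1 common log axis, with heterozygous (Bai1tm2b/+) pools in blue, homozygous (Bai1tm2b/tm2b) pools in orange and pool numbers beside the points. Heterozygous pool 2 lies far above the other points for 7 genes, less so for Met (34.7 CPM), and among them for Tyrp1 and Pmel.

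Together the 10 genes made up 1287 CPM in heterozygous pool 2 and 67.3 to 85.1 CPM in each of the other 5 P22 libraries. The 1 pool was the highest of the 6 libraries for 8 of the 10 genes. No member separated the genotypes without overlap, beside 33.7% of the 15443 genes tested, a share that the choice of the members by these libraries makes unreadable for them.

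The larger fitted genotype differences of members at P22 depended on heterozygous pool 2, and smaller ones remained without it. Dct averaged 90.0 ± 153 CPM (mean ± SD, n = 3) in heterozygous pools and 1.33 ± 0.415 CPM (n = 3) in homozygous pools, a fitted log2 fold change (homozygous over heterozygous) of -6.06 ± 1.89 (SE). Without heterozygous pool 2 the fitted value was -0.26 ± 0.38. Dnase1 went from -3.90 ± 1.199 to 0.43 ± 0.17 when the pool was left out, and Gpnmb from -2.29 ± 1.00 to 0.93 ± 0.37, so that both changed sign. Lrp2 went from -2.40 ± 0.72 to -0.46 ± 0.21. The median over the 10 genes moved from -2.34 to 0.04, beside 0.01 over all genes tested in either fit.

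The other 4 genes with pool 2 highest followed the same course. Slc45a2 moved from -4.80 ± 1.67 to -0.32 ± 0.78 and Hpse from -3.25 ± 1.05 to -0.10 ± 0.31. Enpep moved from -1.31 ± 0.61 to 0.25 ± 0.16 and Met from -0.38 ± 0.29 to 0.19 ± 0.12. Tyrp1 (0.15 ± 0.31) and Pmel (-0.11 ± 0.21) had log2 fold changes within 1 SE of 0 with the pool. Without it they had 0.18 ± 0.40 and -0.23 ± 0.22.

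Genes that were not members but were on the lists for the same cells were tested in that comparison (edgeR's quasi-likelihood test, adjusted over all genes; a call needed an adjusted p under 0.05, a log2 fold change beyond 0.5 and an SE under 0.5). Of the pigment cell list 11 of 16 other genes had enough counts and none was called by edgeR or by DESeq2. At an unadjusted p under 0.05 (edgeR) were 5 of them, beside 4431 of all 15443 genes tested. Tyr, Mlana and Trpm1, high in heterozygous pool 2 by the rule below, did not pass the expression filter and were not tested. The same held for Bsnd of the marginal cell list. Of the marginal cell list 10 of 12 other genes were tested and 1 was called, Esrrb, an orphan nuclear receptor of marginal cells, beside 3.15% of all genes. Its log2 fold change was -1.49 ± 0.42 (edgeR adjusted p = 0.047) with pool 2 and -0.54 ± 0.10 (edgeR adjusted p = 0.0059) without it, and DESeq2 did not call it. In the basal cell list Cldn11, the tight junction gene of the strial barrier, rose by 0.58 ± 0.12 on the log2 scale (edgeR adjusted p = 0.012), and by 0.62 ± 0.13 (edgeR adjusted p = 0.011) without pool 2. Its values were 268, 290 and 261 CPM in heterozygous pools and 433, 467 and 317 CPM in homozygous pools, which did not overlap. At P7 in counts Cldn11 went the other way, from 266 to 276.5 CPM in heterozygous and from 198.8 to 245.9 CPM in homozygous pools. These did not overlap either, beside 10.7% of genes there, at an unadjusted p under 0.05 (edgeR) and not called. In the TPM libraries its genotypes overlapped. The cells behind the Cldn11 values were not tested.

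Kcne1, the accessory subunit of the marginal cell potassium channel, had a log2 fold change of -4.73 ± 1.51 (edgeR adjusted p = 0.057), and of -0.13 ± 0.47 without pool 2. Its pore subunit Kcnq1 had -2.02 ± 0.63 (edgeR adjusted p = 0.066), and -0.46 ± 0.20 without pool 2. The genotypes overlapped in Kcne1 at P22 but not in Kcnq1, beside 33.7% of all genes tested without overlap. Kcnq1 ran from 4.90 to 37.6 CPM in heterozygous pools and from 3.25 to 4.63 CPM in homozygous pools. Cd44, listed for intermediate cells, was at 0.49 ± 0.10 (edgeR adjusted p = 0.013), just under the size needed for a call, and was called without pool 2 at 0.57 ± 0.11 (edgeR adjusted p = 0.0082). Heyl, of the marginal cell list, was likewise called only without pool 2, at 0.52 ± 0.14 (edgeR adjusted p = 0.031). These made 1 of 11 and, with Esrrb, 2 of 10 genes called in that fit, beside 3.76% of all genes.

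The whole table was then searched for genes that set heterozygous pool 2 apart in the same way, with at least 1 CPM there and at least 2 times the highest of the other 5 P22 libraries. There were 48 such genes, 0.341% of the 14076 at that level, and 7 of the 10 members were among them, as their choice implies. The same search gave 21, 4, 17, 8 and 3 genes in heterozygous pools 1 and 3 and homozygous pools 1, 2 and 3. Apart from members, 3 of 16 genes on the pigment cell list (Tyr, Mlana and Trpm1) and 5 of 12 on the marginal cell list (among them Kcne1, Kcnq1, Bsnd and Esrrb) met the rule. None of the 46 genes on the other 11 lists did, which cover basal cells, spindle and root cells, ligament fibrocytes, Reissner's membrane, hair cells, neurons, Schwann cells, macrophages, endothelium, bone and red cells. Their summed levels in pool 2 were between 0.775 times (bone) and 1.33 times (red cells) the median of the other libraries. With members left out, the summed marginal cell list was 1.75 times that median, and the summed pigment cell list 1.08 times (486.5 CPM against 406.8 to 505.3 CPM), which lay within the range of the other libraries.

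**Figure D2:**
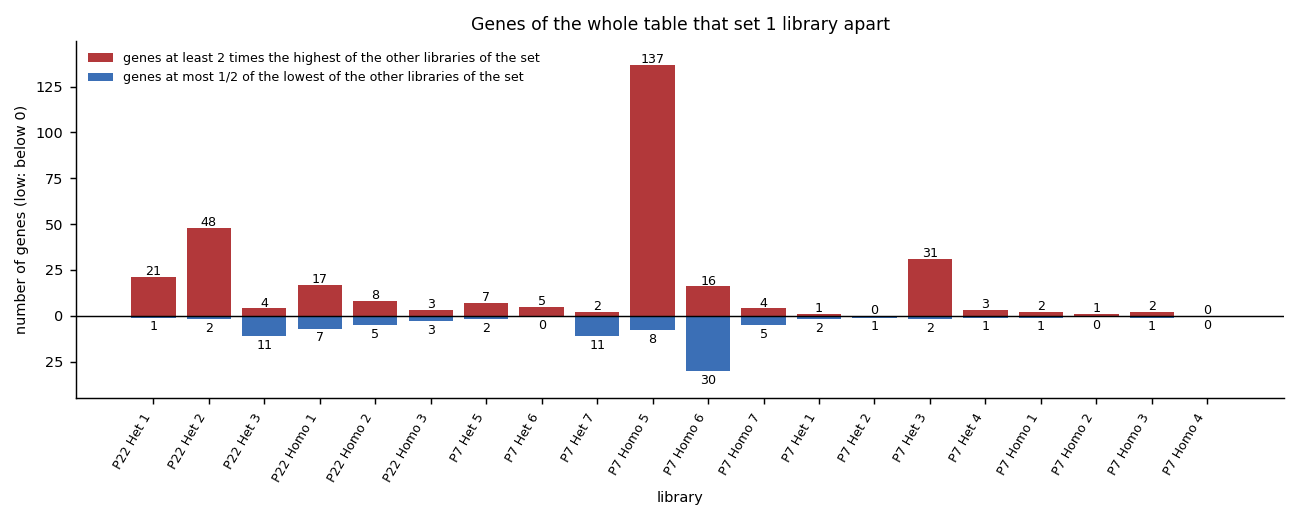
Number of genes in each of the 20 libraries that were at least 2 times the highest of the other libraries of the same set (red, upward) or at most 0.5 times the lowest (blue, downward), with a floor of 1 CPM or 5 TPM. P22 heterozygous pool 2 has 48 high genes, P7 heterozygous pool 3 has 31, P7 homozygous pool 6 has 30 low genes and P7 homozygous pool 5 has 137 high genes, none of them a member.

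By the ratio to the highest other library, the leading genes in pool 2 were Dct (134 times), Kcne1 (56.3 times), Slc45a2 (49.3 times), Dnase1 (38.3 times), Bsnd (30.1 times), Tyr (28.2 times), Tmem45b (22.01 times) and Hpse (21.1 times). Prol1 had 93 counts there and at most 2 elsewhere. Bsnd encodes barttin, a channel subunit at the basolateral face of marginal cells. Of further melanocyte genes, Trpm1 was 15.4 times and Mlana 14.1 times the highest other library, and Tspan10 was 19.5 times. The homeobox genes Hmx3 (14.8 times) and Hmx2 (8.57 times), the keratin gene Krt7 (17.8 times), Gsta2 (11.8 times) and the neurokinin receptor gene Tacr3 (8.83 times) were also there, beside Gpnmb (8.89 times) and Lrp2 (7.68 times).

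Some pigment cell markers did not share the rise in this pool, and neither did the ligament markers. Kcnj10, the intermediate cell potassium channel that satellite glia and other cochlear cells also use, was at 224 CPM in pool 2 and 177 to 250 CPM in the others, 1.05 times their median. Mitf, the melanocyte transcription factor, was at 42.1 CPM against 34.8 to 40.3 CPM, 1.15 times their median. Otos was at 2589 CPM against 1919 to 2920 CPM, and Coch at 5361 CPM against 4884 to 6216 CPM. Of the 48 high genes, 6 were on the pigment cell list, 9 on the marginal cell list and 33 on no list.

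The TPM libraries at P7 came from further pools, and 1 heterozygous pool again stood above the rest. Dct was listed at 4, 12, 212 and 59 TPM in heterozygous pools 1 to 4 and at 22, 21, 29 and 13 TPM in homozygous pools 1 to 4. Dnase1 was listed at 4, 8, 150 and 34 TPM against 11, 12, 15 and 8 TPM. Hpse was listed at 3, 5, 28 and 9 TPM against 5 TPM in each homozygous pool. In all 3 genes heterozygous pool 3 was highest, pool 4 came next and pools 1 and 2 were at or under the homozygous values, so the heterozygous pools enclosed the homozygous ones.

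The same order was seen in 3 of the other 7 members. Gpnmb was listed at 1, 2, 18 and 6 TPM in heterozygous pools and 4, 3, 4 and 2 TPM in homozygous pools. Enpep was listed at 17, 16, 50 and 26 TPM against 24, 21, 19 and 19 TPM. Slc45a2 was listed at 0, 0, 9 and 4 TPM against 1 TPM in each homozygous pool. Pool 3 was again highest and pool 4 second in these 3 genes. Pmel was listed at 6, 6, 13 and 9 TPM against 7, 8, 9 and 7 TPM, and Lrp2 at 5, 4, 8 and 5 TPM against 6, 5, 5 and 5 TPM, with pool 3 highest in both. Met, at 10, 8, 10 and 9 TPM against 12, 11, 9 and 10 TPM, did not follow, and Tyrp1 was listed at 0 in all 8 libraries.

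The range among heterozygous pools was wider than among homozygous pools for 8 of the 10 members, but not for Met (1.25 and 1.33 times from lowest to highest) or for Tyrp1, listed at 0. For Dct the highest pool was 53.0 times the lowest in heterozygous mice and 2.23 times in homozygous mice, and for Dnase1 these ratios were 37.5 and 1.88. In the P7 count libraries the homozygous pools had the wider range for Dct (1.7 and 4.8 times), Slc45a2 (1.3 and 5.4 times), Gpnmb, Met and Hpse. The heterozygous pools had it there for the remaining members. Of the 10 members 8 had a mean of at least 5 TPM and were tested (limma on log2(TPM + 1), adjusted over 11740 genes). None was called, beside 0.767% of all genes, and none was at an unadjusted p under 0.05, beside 4027 of the 11740 genes. The limma adjusted p-values lay between 0.329 and 0.739. The largest log2 difference (homozygous minus heterozygous) was that of Dnase1, at -0.96 ± 0.87, which became -0.02 ± 0.56 without heterozygous pool 3, and Dct, at -0.61 ± 0.95, became 0.35 ± 0.69.

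In the P7 libraries deposited as counts, a different pool stood apart, and downward. Dct measured 46.5, 26.8 and 35.5 CPM in heterozygous pools 5, 6 and 7 and 27.4, 5.68 and 20.1 CPM in homozygous pools 5, 6 and 7. Slc45a2 measured 2.34, 1.82 and 2.09 CPM against 1.92, 0.408 and 2.21 CPM. Gpnmb measured 8.91, 7.65 and 8.21 CPM against 8.39, 1.78 and 4.24 CPM. Homozygous pool 6 was the lowest library for each of these 3 genes, at 0.208, 0.195 and 0.217 times the median of the other 5.

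The 4 marginal cell members were closer to the other libraries in that pool. Dnase1 measured 22.8, 9.53 and 15.1 CPM in heterozygous pools and 8.96, 4.78 and 11.4 CPM in homozygous pools, with pool 6 at 0.421 times the median of the others. Hpse measured 9.99, 8.40 and 8.36 CPM against 7.64, 6.38 and 10.8 CPM, a ratio of 0.760. Enpep measured 65.6, 48.0 and 52.3 CPM against 47.6, 40.7 and 40.7 CPM, a ratio of 0.847. The genotypes overlapped in Dnase1 and Hpse and did not in Enpep, where every heterozygous pool was above every homozygous one. Lrp2, at 83.7, 53.5 and 69.0 CPM against 63.4, 70.9 and 70.5 CPM, was not low in homozygous pool 6.

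Met, Pmel and Tyrp1 again did not follow Dct. Met measured 49.2, 42.1 and 50.4 CPM in heterozygous pools and 36.1, 49.6 and 49.98 CPM in homozygous pools. Pmel measured 9.48, 7.76 and 7.38 CPM against 6.62, 7.20 and 6.46 CPM. Tyrp1 measured 0.222, 0.224 and 0.370 CPM against 0.449, 0.321 and 0.447 CPM, from 9 to 22 counts a library. In Pmel every heterozygous pool was above every homozygous pool, and with Enpep this made 2 of the 10 members without overlap, beside 10.7% of the 16026 genes tested.

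None of the 10 members was called between the genotypes at P7 in counts (edgeR's quasi-likelihood test), where 0.0% of genes were called. Enpep was the only member at an unadjusted p under 0.05, beside 763 of the 16026 genes tested. Its log2 fold change was -0.34 ± 0.14 (edgeR adjusted p = 0.89). DESeq2, which called 51 genes in all, called no member. Dct, at -0.99 ± 0.50, went to -0.57 ± 0.26 without homozygous pool 6, and Gpnmb from -0.74 ± 0.47 to -0.35 ± 0.30. Slc45a2 went from -0.41 ± 0.52 to 0.02 ± 0.24. The largest positive value was that of Tyrp1, at 0.62 ± 0.37. The smallest edgeR adjusted p among the members was 0.894.

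**Figure D3:**
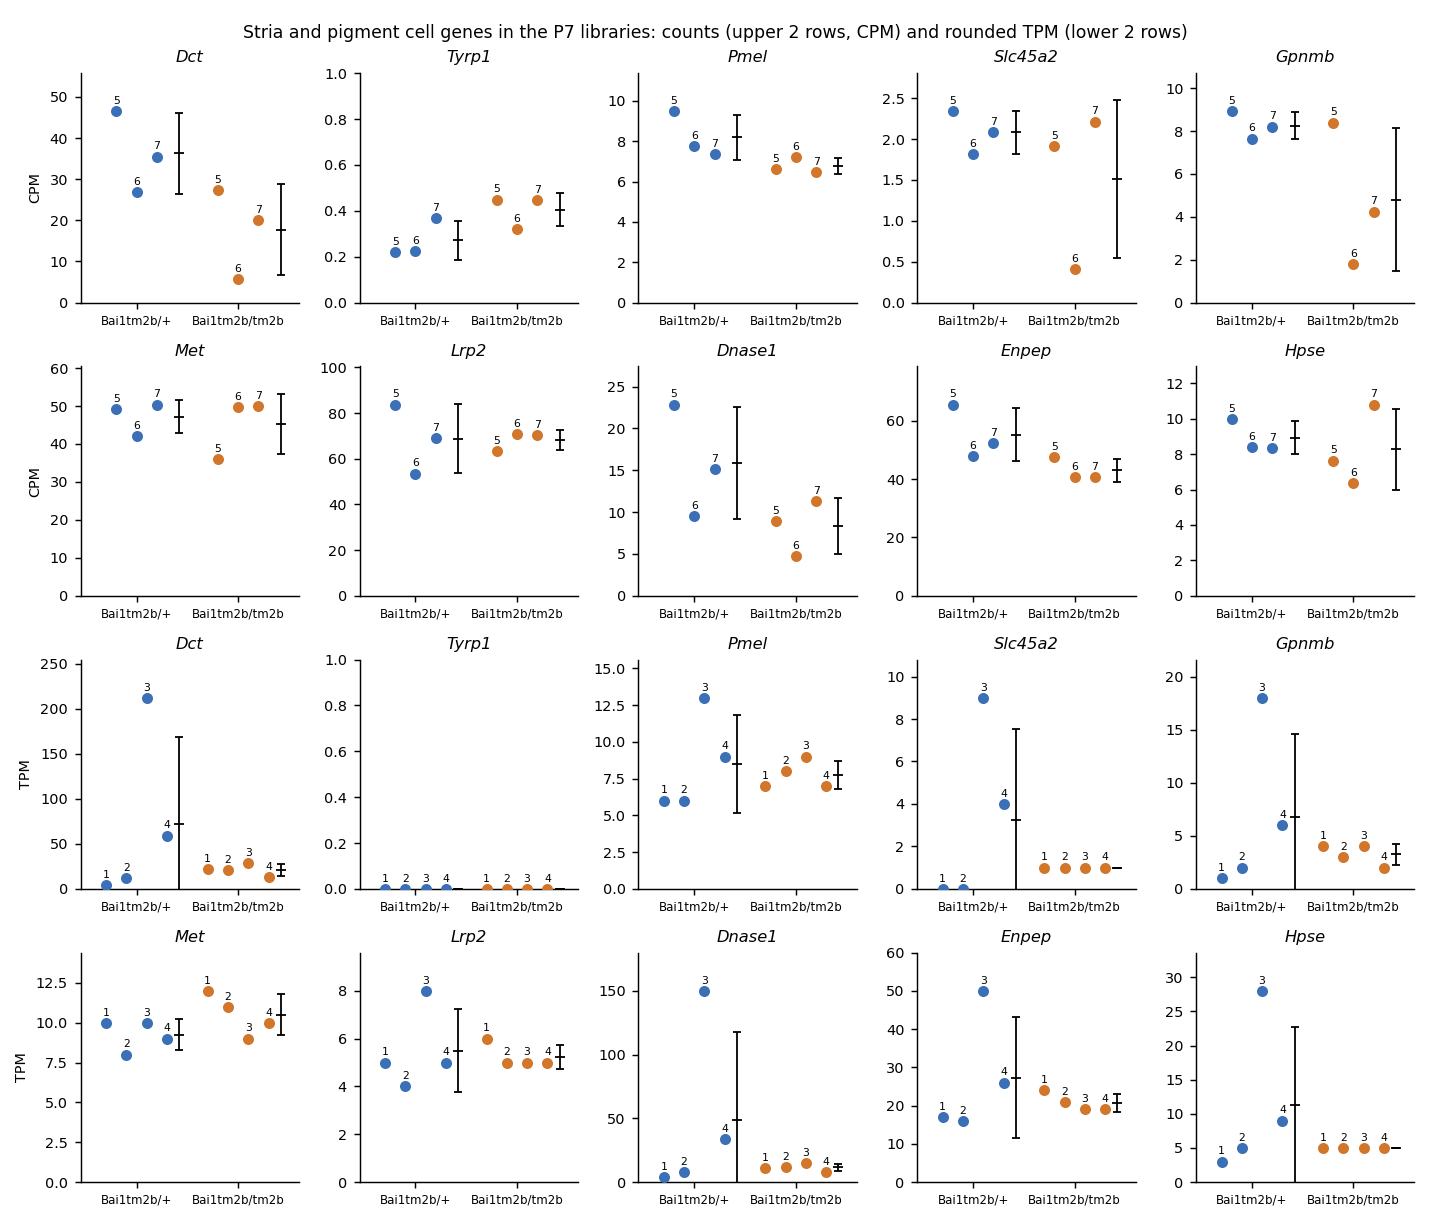
Level of each gene at P7, in CPM for the 6 libraries in counts (upper rows) and in TPM for the other 8 libraries (lower rows), on axes from 0, with pool numbers beside the points and black marks for mean ± SD (lower ends cut at 0). Among the TPM libraries heterozygous pool 3 is high, at 212 TPM for Dct and 150 TPM for Dnase1, and among the count libraries homozygous pool 6 is low for Dct, Slc45a2 and Gpnmb.

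Some of the other listed genes also stood high in heterozygous pool 3 at P7. Of the pigment cell list, 3 of the 16 other genes (Tyr, Mlana and Trpm1) and of the marginal cell list 4 of the 12 other genes (among them Kcne1, Bsnd and Esrrb) were at least 2 times the highest other library in heterozygous pool 3, with 1 of the 46 genes on other lists (Car3). Tyr was listed at 0, 1, 21 and 5 TPM in heterozygous pools and 2, 2, 2 and 1 TPM in homozygous pools. Kcne1 was listed at 0, 1, 19 and 7 TPM against 3, 4, 4 and 1 TPM. Both were highest in pool 3, with pool 4 second, as Dct was. In the same pool the summed markers of the other 11 lists ran from 0.723 times (neurons) to 2.01 times (ligament fibrocytes, 7579 TPM against 2860 to 5310 TPM) the median of the other libraries. The summed pigment and marginal cell lists without members were at 0.958 and 1.19 times, both less than the ligament list, and the part of the other cells in the strial values was not tested.

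In homozygous pool 6 Kcne1 measured 0.437 CPM against 4.93 to 12.8 CPM in the other 5 P7 count libraries, and Tyr measured 0.408 CPM against 1.73 to 5.61 CPM. Kcne1 and Bsnd, both of marginal cells, were at 0.0585 and 0.173 times the median of the others and Tyr at 0.126 times, all lower than the 0.208 of Dct. In that pool the summed markers of the other 11 lists ran from 0.475 times (Schwann cells and myelin, 4692 CPM against 8407 to 14350 CPM) to 2.05 times (red cells) the median of the others. Hair cell markers were at 1.32 times and bone markers at 0.549 times, and the part of these cells in the strial values was not tested. Over all P7 count libraries the genotypes did not overlap in Kcne1 (7.47 to 12.8 CPM in heterozygous and 0.437 to 6.29 CPM in homozygous pools). Nor did they in Kcnq1 (9.02 to 13.8 CPM and 6.03 to 7.75 CPM), beside 10.7% of all genes tested. They overlapped in Tyr and Bsnd, and in the TPM libraries also in Kcne1 and Kcnq1. No gene of the pigment cell list (13 tested) or of the marginal cell list (11 tested), members left out, was called between the genotypes at P7 in counts (edgeR), and DESeq2 called none. At an unadjusted p under 0.05 (edgeR) were 1 and 2 of them, Kcnq1 among the latter, beside 763 of all 16026 genes tested. In the TPM set none of the 8 and 6 tested was called (limma). There 1 and 0 were at an unadjusted p under 0.05, beside 4027 of all 11740 genes tested.

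The ratios in the libraries that stood apart were set side by side. Over the 9 members other than Tyrp1, the ratio to the median of the other libraries in P22 heterozygous pool 2 and that in P7 heterozygous pool 3 had a Spearman rho of 0.85. Between P22 heterozygous pool 2 and P7 homozygous pool 6 rho was -0.79 over 10 members, although Lrp2 and Met were not low in pool 6 (1.03 and 1.01 times the median of the others). These are descriptions over genes that share their libraries, and whole-number TPM make ties. Both rho values use the ratio in P22 heterozygous pool 2, the pool by which the members were selected. The P7 pools were picked after their values were seen, so some agreement was built in and no test was made.

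In both high pools Dct, Dnase1 and Slc45a2 had the 3 largest ratios: 203, 55.3 and 66.6 at P22 and 10.1, 13.6 and 9.0 at P7. Lrp2 was at 12.5 and 1.6. Of the 48 genes high in P22 heterozygous pool 2 and the 31 high in P7 heterozygous pool 3, 19 were shared, which is 39.6% of the first and 61.3% of the second. With the 30 genes low in P7 homozygous pool 6 the 48 shared 6 genes, 12.5% of the first and 20% of the second (Dct, Gpnmb, Kcne1, Padi1, Slc45a2 and Tyr). The 19 genes shared by the high pools were 5 members (Dct, Slc45a2, Gpnmb, Dnase1 and Hpse), 7 listed genes (among them Tyr, Mlana, Trpm1, Kcne1, Bsnd and Esrrb), and Krt7, Tmem45b, Rgs4, Stac, Wfdc18, Atp6v0a4 and Bglap3. Krt7 was listed at 17 TPM in P7 heterozygous pool 3 and at 1 to 7 TPM in the other 7 libraries.

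Each of these 2 P7 pools was also set against all genes. Heterozygous pool 3 was the highest of the 8 TPM libraries for 7 of the 8 members tested and for 8 of 9 tested non-members from the 48 genes, beside 18.0% of all genes tested. Only 9 of the 41 non-members reached the mean of 5 TPM needed, and that mean included pool 3 itself. Gpnmb and Krt7, for example, averaged 3.14 and 3.71 TPM in the other 7 libraries. They passed the filter only through pool 3, so their place there was fixed in part by the filter. Homozygous pool 6 was the lowest of the 6 count libraries for 6 of 10 members and 18 of 38 tested non-members, beside 16.9% of all genes. Enpep counts among these members only by 40.69 CPM against 40.7 CPM in homozygous pool 7, nearly a tie. The P7 pools were picked after these values were seen, so no test was made.

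**Figure D4:**
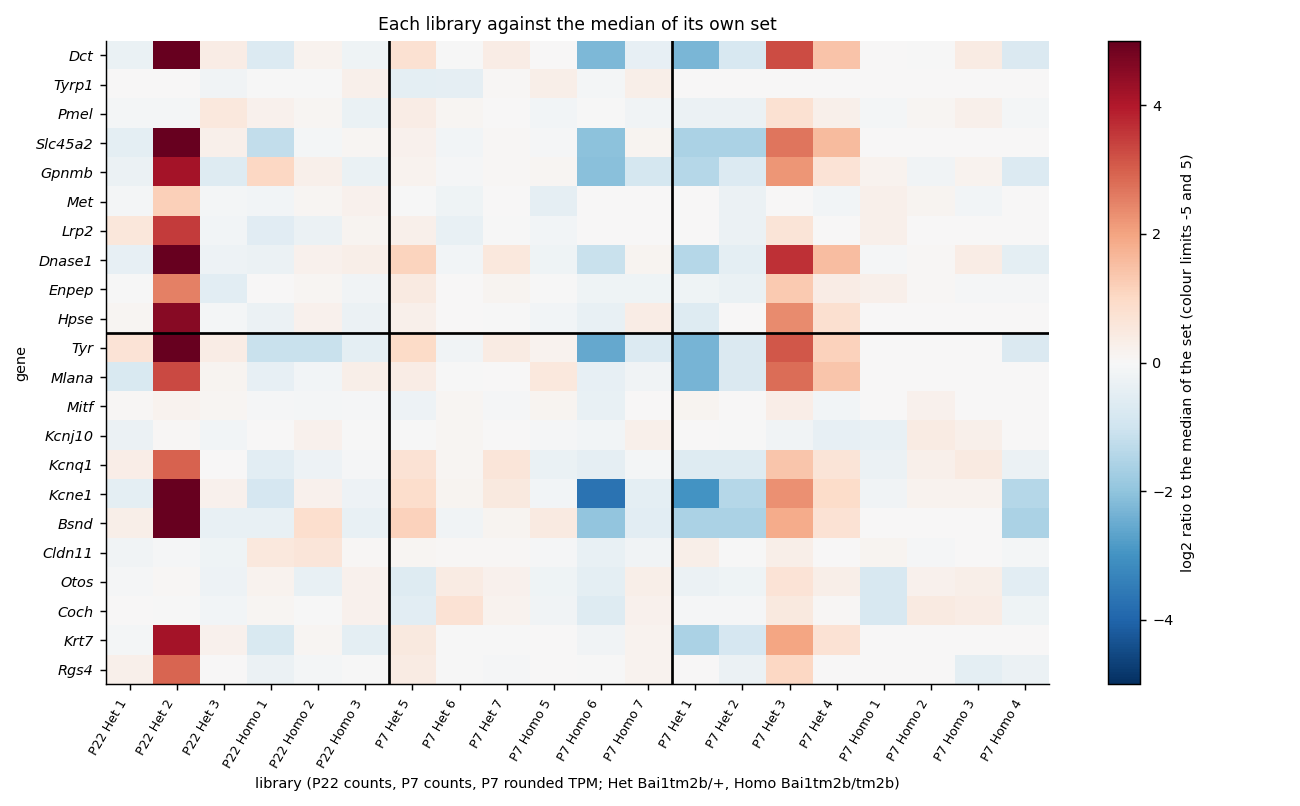
Log2 ratio of each library to the median of its own set (P22 counts, P7 counts, P7 TPM, separated by vertical lines) for the 10 members (above the horizontal line) and 12 other genes, after adding 0.1 CPM or 0.5 TPM, with red above and blue below the median. The red columns are P22 heterozygous pool 2 and P7 heterozygous pools 3 and 4, the blue ones P7 homozygous pool 6 and P7 heterozygous pools 1 and 2, while Tyrp1, Kcnj10, Mitf and Cldn11 stay pale across the row, between -0.47 and 0.62.

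Between P7 and P22 most members were lower at the later age once the 1 high pool was set aside. Dct averaged 27.0 ± 13.8 CPM (n = 6) at P7 and 1.44 ± 0.433 CPM (n = 5) at P22 without heterozygous pool 2, a ratio of 18.8. Slc45a2 averaged 1.80 ± 0.706 and 0.210 ± 0.107 CPM, and Hpse 8.59 ± 1.595 and 1.64 ± 0.285 CPM. Their highest P22 library among the 5 was below their lowest at P7 in each of the 3 genes. The P7 and P22 libraries came from separate dissections and tables, so age and experiment cannot be told apart. The ligament markers Otos (252 to 522 CPM at P7) and Coch (147 to 383 CPM at P7) were many times lower at P7 than at P22, and the part of the tissue taken was not tested.

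Enpep averaged 49.1 ± 9.24 CPM at P7 and 10.4 ± 1.68 CPM at P22 in these libraries. Lrp2 averaged 68.5 ± 9.94 and 27.7 ± 8.66 CPM. Met averaged 46.2 ± 5.85 and 15.3 ± 1.71 CPM. All of these were 2.48 to 4.72 times higher at P7, with no overlap. Gpnmb, at 6.53 ± 2.86 and 2.80 ± 1.52 CPM, overlapped between the ages, as did Dnase1 at 12.1 ± 6.25 and 10.1 ± 2.27 CPM and Pmel at 7.48 ± 1.09 and 5.63 ± 1.29 CPM. Tyrp1 went the other way, at 0.339 ± 0.102 and 0.762 ± 0.10 CPM, with every P22 library above every P7 library.

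By these 5 and 6 libraries, 6 members were lower at P22 without overlap and 1 was higher, beside 32.5% and 31.0% of the 16314 genes tested. With heterozygous pool 2 among the P22 libraries only Met was lower and only Tyrp1 higher without overlap, beside 32.0% and 30.6% of genes. In that pool 7 of the 10 members exceeded every P7 count library, by 21.6 times the highest of them for Dnase1, 6.80 times for Slc45a2, 5.75 times for Dct and 1.68 times for Tyrp1.

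The fitted log2 fold changes (P22 over P7) moved with the pool. Dct was at -1.21 ± 1.05 with it and -4.12 ± 0.40 without it, and Slc45a2 at -0.80 ± 0.96 and -3.04 ± 0.50. Dnase1 went from 1.92 ± 0.81 to -0.24 ± 0.25 and Gpnmb from 0.28 ± 0.70 to -1.33 ± 0.36, both changing sign. Lrp2 was at -0.31 ± 0.48 and -1.28 ± 0.16, Hpse at -0.80 ± 0.65 and -2.38 ± 0.17 and Enpep at -1.47 ± 0.40 and -2.25 ± 0.11. Met (-1.33 ± 0.20 and -1.61 ± 0.10), Pmel (-0.44 ± 0.14 and -0.38 ± 0.14) and Tyrp1 (1.18 ± 0.23 and 1.17 ± 0.25) moved little.

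**Figure D5:**
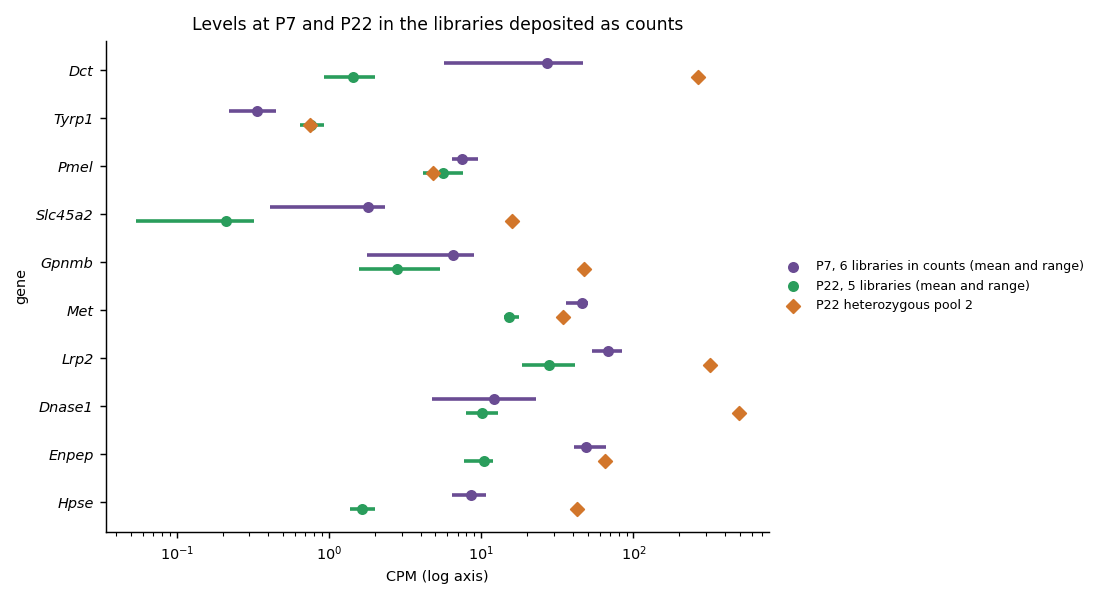
Levels in the libraries deposited as counts, in CPM on a log axis, with the mean (point) and range (line) of the 6 P7 libraries in purple and of the 5 P22 libraries other than heterozygous pool 2 in green, and that pool as an orange diamond. The green lines lie left of the purple ones for 6 genes and right of it for Tyrp1, and the diamond lies right of all purple lines for 7 genes.

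Of the other genes on the pigment cell list, 8 of 13 tested were lower at P22 and none was higher (edgeR's quasi-likelihood test; a call needed an adjusted p under 0.05, a log2 fold change beyond 1 and an SE under 0.5), beside 15.8% of all genes called lower and 13.7% called higher. Their median log2 fold change was -1.45, beside -0.05 over all genes. Rab38, a small GTPase of melanosome cargo transport, fell by 2.42 ± 0.16 on the log2 scale (edgeR adjusted p = 1.47e-08). Ednrb, the endothelin receptor of melanoblasts and glia, fell by 2.36 ± 0.14 (edgeR adjusted p = 9.47e-09). Pax3, a transcription factor of the melanocyte lineage, fell by 1.65 ± 0.24 (edgeR adjusted p = 3.07e-05) and Cd44, at -1.49 ± 0.10, fell as well (edgeR adjusted p = 2.52e-08). The others called lower were Oca2, Kcnj13, Nrp2 and Slc24a5, and the same 8 genes were called without heterozygous pool 2. Of the exon bases of Kcnj13, 49.1% overlap Gigyf2 on the opposite strand, and of those of Slc24a5, 39.5% overlap Myef2. The part of these overlapping genes in the 2 calls was not tested. Tyr had -3.56 ± 1.71 and, without the pool, -5.32 ± 0.99, beyond the SE limit both times. Mitf, at 0.89 ± 0.09, and Kcnj10, at -0.16 ± 0.08, did not reach the size needed.

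The calls on the marginal cell list did not go one way with age, while most of its genes were lower at P22. Of the 11 other genes tested, 3 had a log2 fold change above 0, and the median was -0.475. Without heterozygous pool 2 the median was -0.949, beside -0.05 and -0.06 over all genes in the 2 fits. Of its other genes 2 of 11 tested rose, Abcg1, a sterol transporter, by 1.67 ± 0.08 on the log2 scale (edgeR adjusted p = 7.17e-10) and Esrrb by 1.53 ± 0.34 (edgeR adjusted p = 0.0012), and none was called lower. Without heterozygous pool 2 both remained called and 2 genes were called lower, among them Heyl (-1.07 ± 0.11, edgeR adjusted p = 3.37e-06), beside 15.3% of genes lower and 13.5% higher in that fit. Kcne1 averaged 0.789 CPM in the 5 other P22 libraries, 8.81 times less than at P7. Of the 13 and 11 tested genes of these 2 lists, none differed in its genotype effect between P22 and P7 by the interaction term in edgeR. In each list 1 gene was at an unadjusted p under 0.05 (Tyr in the pigment cell list), beside 1666 of all 16314 genes tested.

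Levels of different genes were compared only per length, as CPM per kilobase of the longest coding transcript. In the P7 count libraries Dct was first by its median (12.3 CPM per kilobase) and Enpep second (11.4), followed by Met (7.25), Dnase1 (7.05), Lrp2 (4.51), Pmel (3.42), Hpse (2.69), Gpnmb (2.14), Slc45a2 (0.671) and Tyrp1 (0.127). The ranges of neighbours in this order overlapped except between Enpep and Met. In the 5 P22 libraries other than heterozygous pool 2, Dnase1 came first (6.03) and Dct came 6th at 0.596 CPM per kilobase. In heterozygous pool 2 Dnase1 (333) and Dct (121) led, Lrp2 followed at 20.4 and Tyrp1 was last at 0.277 CPM per kilobase. Tyrp1 was thus the lowest or next to lowest of the 10 genes per length in each of the 3 groups of libraries.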

How the data were processed

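RNA-seq of 20 pooled cochlear libraries was analysed. The authors deposited estimated counts per gene for 12 libraries and, for the other 8 P7 libraries, TPM rounded to whole numbers, treated here as a score. Per the labels and the methods, paired reads of 150 bp from poly A RNA were processed with an nf-core pipeline (STAR, Salmon, DESeq2; build mm10); versions, annotation and strand setting are not given in the sources used here. Rounding hides differences under 1 TPM and gives no depth.

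Estimated counts were rounded and tested with edgeR 4.0.16 (quasi-likelihood, TMM, default expression filter) in R 4.3.3, and TPM with limma 3.58.1 (log2(TPM + 1), mean of at least 5, TMM scaling); p-values were adjusted by Benjamini-Hochberg over all genes. DESeq2 1.42.0 was an alternative, and the fits were tested on simulated data. The fits at P22 and at P7 used their own 6 or 8 libraries and the age fit all 12 count libraries. Same-numbered pools of both genotypes were not treated as pairs. The methods say that mice came from several breeding pairs, but the sources used here do not assign them to pools, so p-values measure the spread between pools. The members and all gene lists were chosen with earlier results of these data known. Named were all members in every library, the 20 genes with the largest ratio in P22 heterozygous pool 2, at most 4 listed genes called each way per comparison, and fixed strial and ligament markers; further genes and the P7 pools were named after their values were seen. Promoters, from RefSeq (GRCm38.p6), were listed for 8 of 10 members, and gene positions and lengths come from GENCODE M21 on GRCm38. 1 listed gene is not reported here by name.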

Additional observations from a re-analysis of the deposited data

Results flagged for a closer look

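In the groups of 4 TPM libraries, each member was examined for a pool lying far from the other 3 relative to the whole range. Lrp2 was the 1 value found, at 6 TPM in P7 homozygous pool 1 beside 5 TPM in the other 3 homozygous pools, a step of 1 TPM, which is the rounding unit of these files. For continuous values chance alone gives such a result in about 1 of 20 groups, and 16 groups were examined. In whole numbers 3 tied values beside 1 other always give it, so the rate for these files is not known. The heterozygous TPM pools were spread over too wide a range for pool 3 to be found in this way, since pool 4 lay between it and the others.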

How the results depend on the processing

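Counts of called genes over the whole table were followed under other settings, with 1 choice changed at a time. Leaving out 1 pool gave 270 (without heterozygous pool 1) to 588 calls (without heterozygous pool 2) at P22, with 285 without heterozygous pool 3 and 282 without homozygous pool 2, beside 486. At P7 it gave 0 to 0 calls in counts and 0 to 334 in TPM, the latter beside 90. It gave 0 to 112 genes beside 5 for the difference between the ages, and 4673 to 4830 beside 4818 for P22 over P7. The pools whose removal took the TPM calls to 0 were homozygous pools 2, 3 and 4 and heterozygous pools 2, 3 and 4, and 334 came without homozygous pool 1. The 112 came without P7 homozygous pool 5, and leaving out any other pool gave at most 12. DESeq2 called 51 genes at P7 in counts, beside 0. In TPM, a mean of at least 1 gave 0 calls, no filter 0 and no TMM scaling 293. The replicate block gave 465 calls at P22, 0 at P7 in counts and 0 in TPM. Same-numbered pools did not deviate together (correlations of at most 0.0806) and were not treated as pairs. With so few pools this cannot settle pairing, and whether same-numbered pools shared litters or a dissection is not given. For the genes high in P22 heterozygous pool 2, a ratio of 1.5 gave 74, a ratio of 3 gave 35 and a floor of 0.1 CPM gave 111, beside 48. The causes of these shifts were not tested.

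Among members at P7, with 1 pool left out, some log2 fold changes crossed 0, and none was called. In counts, Slc45a2 ranged from -0.77 to 0.020, Met from -0.12 to 0.081, Lrp2 from -0.14 to 0.19 and Hpse from -0.31 to 0.078. In TPM, Dct ranged from -1.49 to 0.35, Pmel from -0.32 to 0.053, Met from -0.019 to 0.11, Lrp2 from -0.25 to 0.058 and Enpep from -0.56 to 0.00099. Low counts limit Tyrp1, Slc45a2 and Mlana, and rounding limits every TPM below about 5.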
